A study of Mus musculus with 6 samples.

Results

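Cdkn1a encodes p21, an inhibitor of cyclin-dependent kinases that holds cells before DNA synthesis, and it is among the best known genes switched on by the transcription factor p53. The gene and 9 other known p53 targets, namely Mdm2, Ccng1, Trp53inp1, Bax, Btg2, Phlda3, Sesn1, Gdf15 and Zmat3, were followed here in whole mouse lung at E18.5, shortly before birth. Members were every probe set whose only symbol in the platform annotation was one of these 10 genes. The rule found 18 of 45037 probe sets, which stand for 8 of the 10 genes, out of 18193 genes on the array. Bax and Gdf15, and Trp53 itself, were matched by no such probe set and were not analysed here. The genes were picked because Cdkn1a read higher in the knockout arrays, so the values of all members in that contrast are given as a description, with no test.

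The groups were 3 Scap_ko lungs, whose respiratory epithelium lacked Scap by deletion (genotype Scap d/d), and 3 Scap_control lungs. All 6 samples came from a mixed FVB/N and B6 background, and each was hybridised to 1 MOE430 V2 array. Scap escorts the SREBP transcription factors to the site where they are activated for lipid synthesis. What drove the deletion, the alleles that controls carried and whether samples were single animals are not given in the sources used here, so the spread between arrays may be partly technical. Scap itself had signals of 1847, 3286 and 2702 in Scap_ko, against 7264, 4195 and 3080 in Scap_control, on its brighter probe set, with overlap of the groups. Signals are linear intensities. Below, whether a mean is higher or lower, and a percentage of control, refer to the mean of log2 signals, since these were fitted. Array medians lay between 498.5 and 513 in Scap_ko arrays and between 490.9 and 530.5 in Scap_control arrays. With 3 arrays a group, each value has limited precision.

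In the textbook view, p53 is made and destroyed continuously. Mdm2 marks it for degradation, and when DNA damage or other stress frees p53, it binds sites in its target genes and raises their transcripts. Some targets stop the cell cycle (Cdkn1a, Btg2), some feed back on p53 (Mdm2, Ccng1, Trp53inp1), some restrain growth signalling (Sesn1, Phlda3), and Zmat3 encodes an RNA-binding zinc finger protein. Much of p53 control acts on protein stability, which arrays do not measure. Several of these genes, Cdkn1a foremost, also answer to factors other than p53.

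The sequences below show where a p53 site stands close to the start of a member and where none was found. Shown are the 250 bases before RefSeq start sites of Cdkn1a, which has a window at each of 2 starts, and of Ccng1 and Mdm2, 5′ to 3′ on the strand of the gene in build GRCm38.p6. Capitals mark matches to the p53 half-site consensus of 10 bases and to the full site, 20 bases made of 2 adjoining half-sites with at most 1 mismatch.
Cdkn1a, upstream start, chr17:29090729-29090978, plus strand: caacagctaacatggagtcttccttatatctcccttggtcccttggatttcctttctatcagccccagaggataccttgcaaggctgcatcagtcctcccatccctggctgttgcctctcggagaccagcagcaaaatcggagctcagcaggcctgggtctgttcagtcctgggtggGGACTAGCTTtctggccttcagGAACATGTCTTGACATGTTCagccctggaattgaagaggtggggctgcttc
Cdkn1a, downstream start, chr17:29093519-29093768, plus strand: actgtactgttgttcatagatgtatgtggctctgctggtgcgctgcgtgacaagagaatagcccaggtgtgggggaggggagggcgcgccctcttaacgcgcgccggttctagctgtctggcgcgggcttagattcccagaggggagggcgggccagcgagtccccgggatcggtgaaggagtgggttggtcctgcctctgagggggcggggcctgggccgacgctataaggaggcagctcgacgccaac
Ccng1, chr11:40755287-40755536, minus strand: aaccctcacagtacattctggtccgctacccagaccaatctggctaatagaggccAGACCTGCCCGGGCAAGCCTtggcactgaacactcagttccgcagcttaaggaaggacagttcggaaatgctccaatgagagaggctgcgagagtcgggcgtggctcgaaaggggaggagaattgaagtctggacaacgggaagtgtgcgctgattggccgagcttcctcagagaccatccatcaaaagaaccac
Mdm2, chr10:117710759-117711008, minus strand: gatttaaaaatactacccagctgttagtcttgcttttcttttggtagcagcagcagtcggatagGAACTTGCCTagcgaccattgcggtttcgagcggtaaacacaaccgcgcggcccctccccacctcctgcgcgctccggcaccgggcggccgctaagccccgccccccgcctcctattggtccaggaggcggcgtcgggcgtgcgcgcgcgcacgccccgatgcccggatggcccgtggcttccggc

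The upstream Cdkn1a window held a full site between 51 and 32 bases before the start, and the Ccng1 window held one between 195 and 176 bases before it. The full site was chosen as a search pattern after the windows had been read. It occurred in 25 of 32851 RefSeq windows of the same length (0.0761%), on either strand. A single half-site, which overlaps the full site by construction, occurred in 7.13% of windows, and the Mdm2 window held 1 half-site with no full site. Windows were found for 8 of the 10 members, and none was found for Trp53inp1 and Zmat3. The windows of Btg2, Phlda3, Gdf15 and the upstream start of Sesn1 held no half-site, nor did that of the downstream Cdkn1a start. Those of Bax and of the downstream start of Sesn1 held 1 half-site each. Known p53 sites of several targets lie in introns or further upstream, outside these windows. Letters that match are a description and do not show binding.

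Cdkn1a, the cell cycle inhibitor, read higher on its brighter probe set in each Scap_ko lung than in any control. On 1424638_at the signals were 3241, 4151 and 5015 in Scap_ko replicates 1 to 3, against 2616, 2465 and 2975 in Scap_control replicates 1 to 3. The lowest Scap_ko array lay above the highest control array, and the Scap_ko arrays also lay further apart from each other than the controls did. The means were 4136 ± 887 in Scap_ko and 2686 ± 262 in Scap_control (SD of linear signals, n = 3 each). On the log2 scale the difference of means was 0.60 (SE 0.17 from limma), a ratio of geometric means of 152.1%. It came to 0.53 without both arrays numbered 3, and to 0.45 without Scap_ko replicate 3, the lowest value reached by leaving out a single array.

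The dimmer Cdkn1a probe set did not separate the groups. On 1421679_a_at the signals were 793.4, 609.5 and 1244 in Scap_ko, against 360, 782.1 and 1192 in Scap_control. The ranges overlapped over most of their length, and both arrays numbered 3 were the brightest of their group. The log2 difference was 0.28 (SE 0.45), and it was -0.19 without Scap_control replicate 1, 0.00 without Scap_ko replicate 3 and 0.67 without Scap_control replicate 3. Across the 6 arrays the 2 probe sets had a Pearson r of 0.43, given as a description. Which stretch of the transcript, and which of the 2 starts, each probe set reads was not known here. The gene spans chr17:29090979-29100722.

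**Figure D1:**
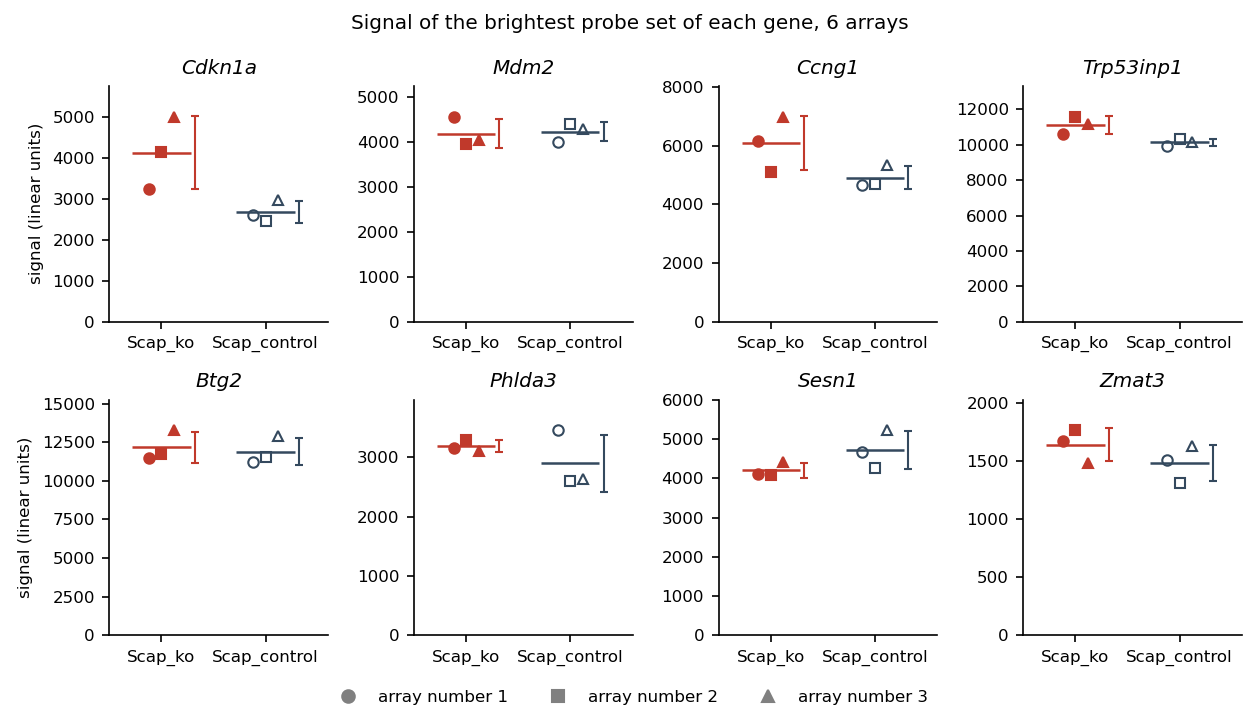
Signal (linear units, axis from 0) of the brightest probe set of each of 8 genes on 3 Scap_ko arrays (filled, left) and 3 Scap_control arrays (open, right). Symbols give the array number, horizontal lines the mean and bars the SD; the groups are apart for Cdkn1a and Trp53inp1 and overlap for the other 6 genes.

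Ccng1 read higher on average in Scap_ko lungs on all 3 of its probe sets. It encodes cyclin G1, which recruits a phosphatase to Mdm2 and so takes part in feedback on p53. On its brightest probe set, 1420827_a_at, the signals were 6170, 5118 and 6988 in Scap_ko, against 4653, 4708 and 5357 in Scap_control. Scap_ko replicate 2 lay below Scap_control replicate 3, so the groups overlapped, although each Scap_ko array read above the control of the same number. The log2 difference was 0.30 (SE 0.14, 123.4% of control), and it moved to 0.20 without Scap_ko replicate 3. The probe sets 1450017_at and 1450016_at stood at 118.3% and 111.2% of control, each with overlapping groups. Leaving out a single array took the difference of 1450016_at from 0.15 to between 0.04, without Scap_control replicate 1, and 0.30, without Scap_control replicate 3.

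Mdm2, the ligase that degrades p53 and a sensitive target of it, showed no difference beyond its spread. On 1423605_a_at the signals were 4564, 3961 and 4044 in Scap_ko, against 3994, 4406 and 4290 in Scap_control. The second bright probe set, 1427718_a_at, read 3608, 3249 and 3121 in Scap_ko, against 3662, 3198 and 3167 in Scap_control. The arrays of both groups were interleaved on each, and the log2 differences were -0.02 (SE 0.11) and -0.01 (SE 0.11). The remaining Mdm2 probe set, 1457929_at, read between 105.6 and 293.3 in Scap_ko and between 125.3 and 190.7 in Scap_control, below the brightness limit of 512.3.

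Trp53inp1, which encodes a stress protein that promotes p53 activity, gave opposite directions on its probe sets. On 1416926_at the signals were 10597, 11590 and 11197 in Scap_ko, against 9952, 10337 and 10156 in Scap_control. The groups were apart, yet the difference was small, at 109.6% of control (log2 difference 0.13, SE 0.09). On the dimmer 1416927_at the signals were 1155, 923 and 1030 in Scap_ko, against 1186, 1074 and 1269 in Scap_control. There Scap_ko stood at 87.9% of control (log2 difference -0.19, SE 0.12) with 1 Scap_ko array inside the control range, so no direction can be given for the gene.

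Growth arrest and survival genes differed little. Btg2, an antiproliferative gene, read 11462, 11749 and 13282 in Scap_ko, against 11204, 11565 and 12882 in Scap_control, on 1416250_at. The log2 difference was 0.03 (SE 0.11), and the second probe set gave 0.05 (SE 0.13). Phlda3, whose product restrains Akt signalling at membranes, read 3156, 3296 and 3113 in Scap_ko, against 3456, 2606 and 2640 in Scap_control. The 3 Scap_ko arrays were close together and lay inside the control range, with a log2 difference of 0.15 (SE 0.14) that became 0.28 without Scap_control replicate 1 and 0.08 without Scap_control replicate 2. Zmat3 read 1677, 1768 and 1484 in Scap_ko, against 1508, 1316 and 1629 in Scap_control. Its groups overlapped as well (log2 difference 0.15, SE 0.12), and the difference was 0.29 without both arrays numbered 3 and 0.06 without Scap_control replicate 2.

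Sesn1, a sestrin that dampens mTORC1 signalling, read lower on average on 2 of its 4 probe sets. On its brightest, 1433711_s_at, the signals were 4119, 4077 and 4421 in Scap_ko, against 4674, 4258 and 5232 in Scap_control. Each Scap_ko array was below the control of the same number, but the groups overlapped because Scap_ko replicate 3 exceeded Scap_control replicate 2. The log2 difference was -0.16 (SE 0.11), or -0.09 without Scap_control replicate 3, and 1454699_at gave -0.17 (SE 0.11). The remaining pair did not share that direction. The probe set 1438931_s_at gave 0.01 (SE 0.17), which ranged from -0.22 without both arrays numbered 3 to 0.12 without Scap_control replicate 2 and so has no direction, and the dim 1444376_at stood at 108.5% of control.

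**Figure D2:**
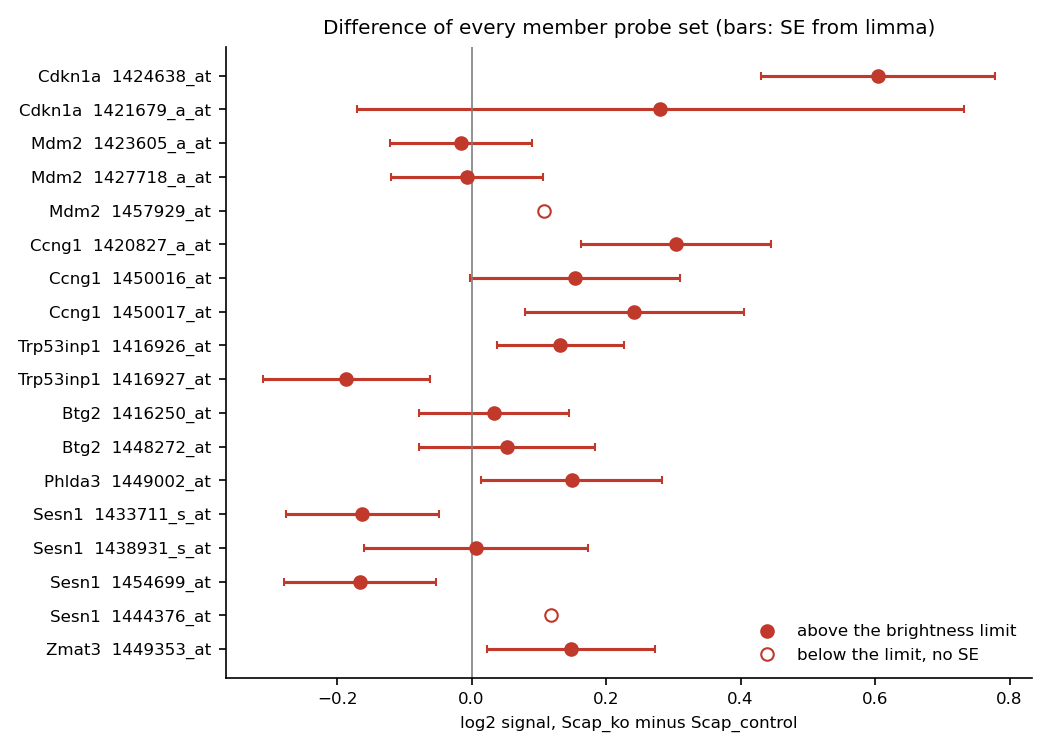
Log2 difference in signal, Scap_ko minus Scap_control, of each of the 18 member probe sets, with bars for the SE from limma and open points for the 2 probe sets below the brightness limit. The brighter Cdkn1a probe set stands at 0.60, the 3 Ccng1 probe sets between 0.15 and 0.30, and the rest between -0.19 and 0.28.

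Counted together, 13 of the 18 member probe sets had a higher mean log2 signal in Scap_ko, among them Sesn1 1438931_s_at, whose mean linear signal was 2963 in Scap_ko and 2968 in Scap_control. Of the 16 that were bright enough to be tested, 11 were higher and 5 lower, with a median log2 difference of 0.09, beside 52.7% higher and a median of 0.01 over the 22519 probe sets tested. By the brightest probe set of each gene, 6 of 8 genes were higher, and 7 of 8 without both arrays numbered 3. The gene that turned was Mdm2, whose log2 difference went from -0.02 (SE 0.11) to 0.02. The 6 include Cdkn1a, Btg2 at 0.03 (SE 0.11), and Trp53inp1, whose dimmer probe set was lower. The groups did not overlap in 2 of 16 member probe sets, both of them higher, where 5.29% of probe sets tested were higher and 5.22% lower without overlap. These were the brighter Cdkn1a probe set and Trp53inp1 1416926_at. Members were picked for the rise of Cdkn1a, so counts that include it cannot be weighed against the shares over all probe sets. Limma called none of the 22519 probe sets in either direction at an adjusted p of 0.05 (0%), so no member could be called. At an unadjusted p of 0.05 it counted 580 higher (2.58%) and 597 lower (2.65%), 5.23% together, and 1028 higher and 870 lower with the array number as a block. Probe sets of 1 gene share its transcript and are not independent of each other.

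A pattern that the choice of members did not use ran along the array numbers. In 8 of 16 tested member probe sets the array numbered 3 was the brightest of its group in both groups, where 17.9% of all probe sets tested had that order. Probe sets of 1 gene are not independent, and by the brightest probe set of each gene the count was 4 of 8. The 8 probe sets are named next. They were both Cdkn1a, all 3 Ccng1, 1 of 2 Btg2 and 2 of 3 tested Sesn1 probe sets, and the order was noticed after the values were seen. On the brighter Cdkn1a probe set the array numbered 3 exceeded the mean of the others by 0.45 on the log2 scale in Scap_ko and by 0.23 in Scap_control. On the dimmer one the excess was 0.84 in Scap_ko and 1.17 in Scap_control, larger than the difference between the groups. No probe set of Mdm2, Trp53inp1, Phlda3 or Zmat3 shared it. The labels do not say what a number means.

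**Figure D3:**
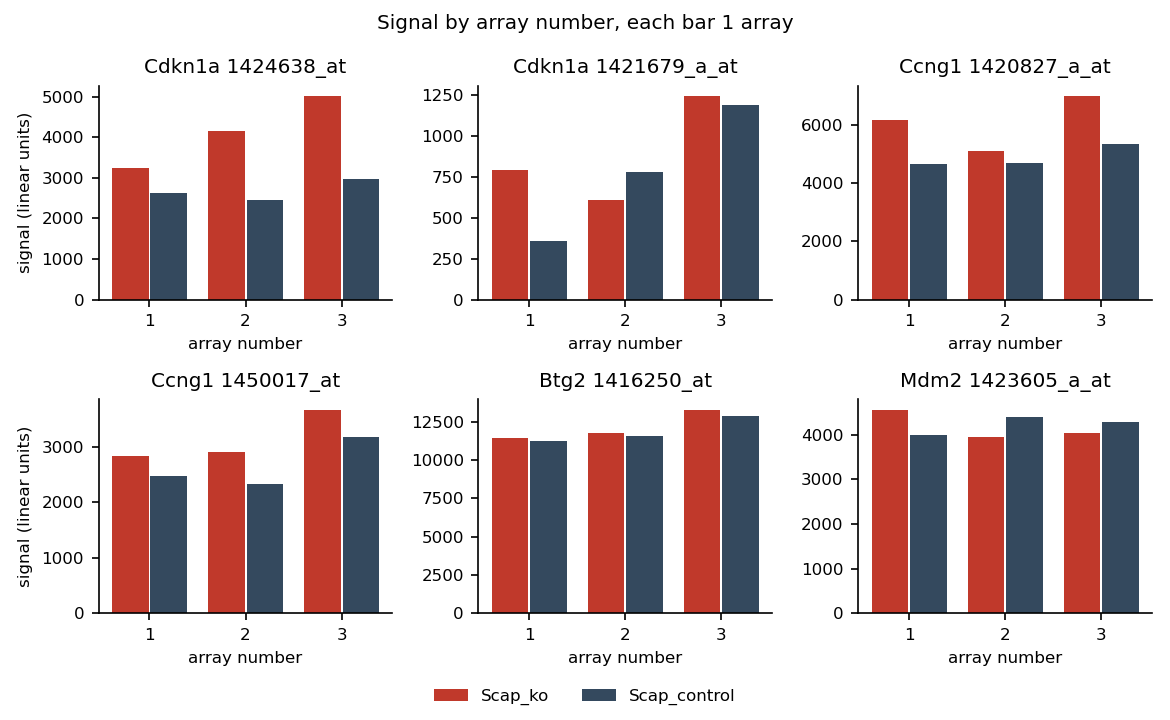
Signal (linear units, bars from 0) of 6 member probe sets by array number, Scap_ko left and Scap_control right in each pair, 1 array a bar. Array 3 is the brightest of both groups in the Cdkn1a, Ccng1 and Btg2 panels, and in the Mdm2 panel it is not.

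Genes that act on p53 had no common direction. Of 20 listed regulators 15 were tested, 9 with a higher and 6 with a lower mean and a median log2 difference of 0.03, and limma called none. Chek1, the checkpoint kinase that acts in DNA replication stress, read 766.5, 662.8 and 595.8 in Scap_ko, against 538.9, 486.6 and 447.3 in Scap_control. The groups were apart at 137.2% of control (log2 difference 0.46, SE 0.13, limma adjusted p = 0.876), on a probe set near the brightness limit. The other Chek1 probe sets lay below that limit and ranged from 80.5% to 157.0%, each with overlapping groups. Hipk2, a kinase that phosphorylates p53, stood at 112.6% on its brightest probe set. Its other tested probe sets ranged from 99.8% to 116.8%, and those below the brightness limit stood at 83.4% and 52.8%. The damage kinase gene Atr stood at 117.3% with overlapping groups. Mdm4, a partner of Mdm2 that holds p53 inactive, read 4395, 3813 and 4553 in Scap_ko, against 3834, 4203 and 3518 in Scap_control, again with overlap. Its other tested probe set stood at 103.6%, and those below the brightness limit at 135.6% and 38.2%, all with overlap.

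Other p53 targets that were bright enough were split evenly between higher and lower means. Of 35 listed genes 25 were tested, 13 with a higher and 12 with a lower mean, a median log2 difference of 0.01 and no call by limma. Without both arrays numbered 3, 11 were higher and the median was -0.04. With no limit on brightness 21 of 34 were higher, since 8 of the 9 dim genes were, all but Plk3. Of the dim genes, Tnfrsf10b, Eda2r and Zfp365 had groups apart. The others overlapped, among them Pmaip1 at 102.2% and Pidd1 at 101.7% of control. No share over all dim probe sets is given here, so the dim genes are not read as a result. Among the 25 tested genes, at an unadjusted p of 0.05 from limma, 2 were higher and 1 lower. Over all probe sets tested these shares were 2.58% and 2.65%. In 4 of the 25 every Scap_ko array lay above every control, and in 3 every one lay below. Of all probe sets tested, 5.29% and 5.22% had those orders. Cd82, 1 of the 4, stood at 115.3% of control. Gadd45a, a growth arrest gene induced by DNA damage, read 1136, 1153 and 1281 in Scap_ko, against 878.1, 709.5 and 928 in Scap_control. All Scap_ko arrays lay above all controls (log2 difference 0.51, SE 0.13, limma adjusted p = 0.814). Psrc1, which encodes a protein of the mitotic spindle, read 1868, 1668 and 1331 in Scap_ko, against 1248, 1036 and 815.6 in Scap_control (log2 difference 0.66, SE 0.19, limma adjusted p = 0.876). Its other probe sets, below the brightness limit, stood at 170.9% and 72.6% with overlapping groups. Pltp, the phospholipid transfer protein, stood at 84.5% on its brightest probe set and at 91.9% on the other.

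Of the targets named here for cell death, those above the brightness limit with groups apart were lower. Those that were higher with groups apart lay below that limit. Bbc3, which encodes PUMA, read 1375, 1291 and 1355 in Scap_ko, against 1605, 1450 and 1435 in Scap_control. Perp, a membrane protein of desmosomes, read 3785, 3413 and 3531 in Scap_ko, against 4617, 4074 and 3906 in Scap_control. Both had every Scap_ko array below every control, with log2 differences of -0.16 (SE 0.10, limma adjusted p = 0.955) and -0.23 (SE 0.11, limma adjusted p = 0.942). Fas, a death receptor gene, stood at 93.4%, and Apaf1, a part of the apoptosome, at 89.8%. Tnfrsf10b, another death receptor gene, read 211, 194.2 and 166.1 in Scap_ko, against 125.8, 152 and 135.4 in Scap_control, with groups apart but far below the brightness limit. Eda2r, a receptor of the TNF receptor family, read 145.8, 141.9 and 201.5 in Scap_ko, against 107.9, 70.5 and 127.6 in Scap_control. Its groups were apart too, below the same limit. Aen stood at 104.8% and Ei24 at 105.8% with overlapping groups, and the dim Pmaip1 at 102.2% and Pidd1 at 101.7%. These genes were named for their role after the values had been seen, so no count is drawn from them.

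Genes that carry a full p53 site in their window are defined by sequence, but the pattern was chosen after the Cdkn1a and Ccng1 windows and the data had been seen. Among 25 such genes, 11 were on the array by name and 5 were bright enough to test, Cdkn1a and Ccng1 included, from which the pattern came. The others were Calhm2 (112.9% of control), Mthfd1 (100.2%, a log2 difference of 0.00 with SE 0.16) and Rps27l (108.4%). Rps27l, a ribosomal protein-like gene known as a p53 target, read 14295, 14317 and 14568 in Scap_ko, against 13311, 13797 and 12746 in Scap_control. The groups were apart for Cdkn1a and Rps27l and overlapped for the others, and the 3 that are not members had a median log2 difference of 0.12. The other 6 genes with a probe set lay below the brightness limit, 2 with a higher and 4 with a lower mean.

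Other genes of the cell cycle brake did not accompany Cdkn1a. All 5 other listed inhibitors of cyclin-dependent kinases had a lower mean, each with overlapping groups and a median log2 difference of -0.09, and limma called none. Without both arrays numbered 3, 1 of the 5 turned higher. Cdkn1c, which encodes p57, read 13364, 13074 and 12152 in Scap_ko, against 15156, 12205 and 16297 in Scap_control. Cdkn2b stood at 88.4% of control and Cdkn2d at 96.0%. The partners that p21 binds, with G1 cyclins and kinases, had 9 of 12 tested members higher (8 under quantile normalization) and a median of 0.03. Among them Ccnd2, encoding cyclin D2, stood at 121.8% (log2 difference 0.29, SE 0.11, limma adjusted p = 0.937), with its 6 other probe sets between 108.9% and 139.2%. Rb1 stood at 90.3% and E2f1 at 87.2%, where a second E2f1 probe set read 111.7%.

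Cell cycle genes that p53 represses by way of p21 read lower in 8 and higher in 9 of 17 tested members, with a median log2 difference of 0.06 and no call by limma. Mcm5, a subunit of the replicative helicase, read 3419, 2985 and 1983 in Scap_ko, against 2327, 2619 and 1604 in Scap_control. Plk1, a mitotic kinase, stood at 121.2% and Foxm1, a transcription factor of mitotic genes, at 89.6%. None of the 17 had groups apart on its brightest probe set, and 12 were higher without both arrays numbered 3. Array 3 was the dimmest of its group in both groups for Mcm5, Plk1 and every other tested member except Foxm1 and Mcm2. On that array Cdkn1a was brightest. No share over all probe sets is given here for this order, and what it means for Cdkn1a was not tested.

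A list of stress genes held Ddit3, Trib3, Atf3, Chac1, Atf4, Asns, Nupr1, Ddit4 and Sesn2. Whether these genes share targets with p53 was not tested, so their values are not read as a result on p53. Of the list, 9 of 9 tested members had a higher mean, with a median log2 difference of 0.70. For Sesn2 the difference was only 0.02 (SE 0.65). Limma called none, and 6 were higher at an unadjusted p of 0.05. Over all probe sets tested 52.7% had a higher mean, and 2.58% were higher at that unadjusted p from limma. The list was chosen with earlier results of these data known, so its counts are a description. Ddit3, encoding CHOP, read 2393, 2401 and 1979 in Scap_ko, against 1337, 1193 and 1337 in Scap_control (log2 difference 0.80, SE 0.12, limma adjusted p = 0.479). Atf3 stood at 207.1% of control and Trib3 at 170.5%, each with groups apart. The array order was not shared within the list. In Scap_ko replicate 3 was the lowest for Ddit3 and the highest for Cdkn1a. Nupr1, named after its values were seen, had the array order of Cdkn1a in both groups. It read 8999, 10204 and 16795 in Scap_ko, against 6625, 6116 and 11648 in Scap_control, with overlap. What these orders mean for Cdkn1a was not tested. Sesn2, a sestrin on both this list and that of p53 targets, read 270.7, 1290 and 1602 in Scap_ko, against 541.1, 929 and 1078 in Scap_control, too scattered for a direction.

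Other known regulators of Cdkn1a had 7 of 13 tested members higher, a median of 0.01 and no call by limma. Without both arrays numbered 3, 6 were higher and the median was -0.03. Srebf1, which encodes an SREBP, read 4548, 5310 and 4207 in Scap_ko, against 7057, 7208 and 8416 in Scap_control (log2 difference -0.69, SE 0.13, limma adjusted p = 0.643). Foxo3, a forkhead factor that activates Cdkn1a, stood at 82.4% with groups apart on its brightest probe set and at 97.5% on the next. Cebpa, a differentiation factor of lung epithelium, stood at 78.9% with overlapping groups.

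**Figure D4:**
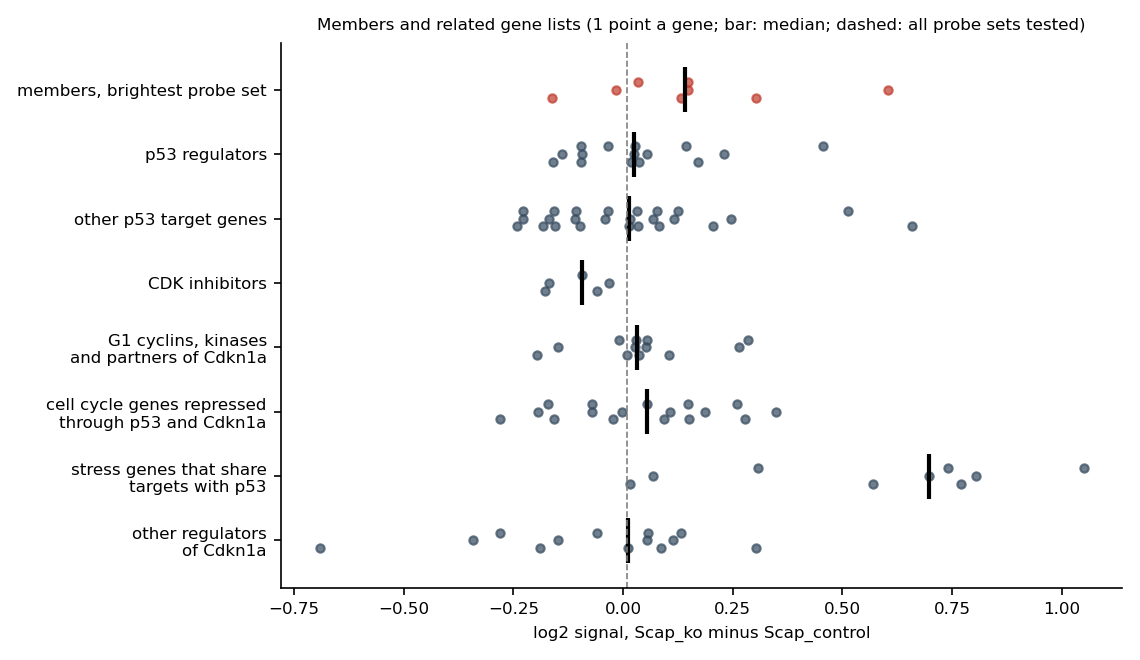
Log2 difference in signal, Scap_ko minus Scap_control, of the members (red, brightest probe set of each gene) and of 7 related gene lists, 1 point a tested gene, with a black bar at each median and a dashed line at the median of all probe sets tested. The stress genes have a median of 0.70, and the other lists and the members lie between -0.09 and 0.14.

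The gene whose signal followed the brighter Cdkn1a probe set most closely over the 6 arrays, among 10637 genes compared, was Tarbp2, with a Pearson r of 0.997 on the log2 scale. It read 1731, 1905 and 2015 in Scap_ko, against 1598, 1565 and 1704 in Scap_control. Next came Hacd3 (r = 0.989), Ddb1 (0.983), Itga7 (0.982) and Lman2l (0.980). Most opposed were Lta4h (r = -0.997), Ncam1 (-0.996) and Vps35 (-0.992). Among members the closest were Trp53inp1 1416926_at (r = 0.86) and Ccng1 1450017_at (0.84), and the bright Mdm2 probe sets had r of -0.44 and -0.41. The 6 points share arrays, scaling and groups, and r is given as a description.

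Markers of lung were present and those of thymus nearly absent. All 13 epithelial markers were above the brightness limit, and their summed signal was 438121 to 477224 in Scap_ko and 402979 to 510958 in Scap_control. The sums of the 4 thymus markers did not exceed 271.1 in Scap_ko and 395.9 in Scap_control. Endothelial markers summed to 57722 to 62703 in Scap_ko and 62185 to 70378 in Scap_control, with overlapping groups and 5 of 6 lower. Leukocyte markers summed to 40083 to 56619 in Scap_ko and 61312 to 75519 in Scap_control, with 4 of 6 lower and most of the sum from Lyz2, which alveolar type II cells also express. The part of these markers in the Cdkn1a difference was not tested. Mesenchymal markers summed to 179412 to 186107 in Scap_ko and 167124 to 199749 in Scap_control. Erythroid markers summed to 12790 to 16940 in Scap_ko and 15896 to 19185 in Scap_control. Heart and skeletal muscle markers summed to 29847 to 46050 in Scap_ko and 29396 to 36167 in Scap_control, mostly from Myh6, Actc1 and Tnnt2. Each of these sums overlapped between groups. Of single markers, 6 of 6 for heart and skeletal muscle and 0 of 3 for erythroid cells had a higher mean in Scap_ko. For mesenchyme it was 2 of 7 and for epithelium 8 of 13. In bulk lung, fewer cells of a type and less RNA per cell cannot be told apart.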

How the data were processed

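Biotin-labelled cRNA from whole-lung total RNA (RNeasy) was read on MOE430 V2 chips, per the labels' protocols. The authors deposited linear intensity values for 45101 probe sets. RMA is the tool in the submitters' processing notes, but the values are linear and not quantile normalized; each array's mean after trimming 2% at either end is 1500, so scaling to a common trimmed mean is likely. Whether background was corrected is not known.

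After 64 control probe sets had been left out, signals were turned into log2 values with no pseudocount. Of 45037 others, 34945 carried 1 symbol, 932 several and 9160 none, and only the first were named. The gene table of GRCm38.p6 held 34741 of their Entrez IDs and changed 0 symbols. Probe sets whose mean signal reached the median (512.3) were tested, 22519 in all, so that each probe set of a gene could be shown. Scap_ko was set against Scap_control with limma 3.58.1 (lmFit, eBayes; R 4.3.3), two-sided, without covariates, with Benjamini-Hochberg adjustment over all probe sets tested. In lists each gene stood by its probe set of highest mean. The fit was tested on simulated data. Alternatives were quantile normalization, a pseudocount of 50, other filters, 1 probe set per gene, the replicate block, and leaving out arrays.

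Members and lists were chosen with earlier results of these data known. Named were all member probe sets, up to 3 genes of smallest p from each list, Mdm4 and Ddit3, and the 5 genes most like and 3 most unlike Cdkn1a; genes named after their values were seen are marked. Deviations from group means correlated at 0.22, 0.30 and 0.41 for same-numbered arrays, each over 0.1, so the title numbers may pair the arrays; the values given come from the fit without this block unless it is named. Upstream windows came from RefSeq (GRCm38.p6).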

Additional observations from a re-analysis of the deposited data

How the results depend on the processing

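The brighter Cdkn1a probe set had log2 differences from 0.45 to 0.77 under the 9 alternatives that change its value. Its groups were apart, so leaving out arrays or adding a pseudocount could not turn its sign, and the kept sign is no check. The same holds for Trp53inp1 1416926_at. The 6 of 8 member genes that were higher became 5 to 7 when single arrays were left out. Of the 18 member probe sets 10 kept their sign under every alternative that changes their values, and 8 changed it under at least 1. Limma called 0 probe sets at an adjusted p of 0.05, also when any single array was left out (lowest and highest 0). It called 1 with the brightest probe set of each gene (Acox2, adjusted p = 0.0308) and 1 with the replicate block (Eno4, adjusted p = 0.0452), neither a member. Counts at an unadjusted p of 0.05, 580 higher and 597 lower, became 1028 and 870 with the replicate block, 831 and 1559 with no filter on dim probe sets, 312 and 342 when only probe sets above the 75th percentile were tested, and 314 and 334 with 1 probe set per gene; the last 2 test fewer probe sets. Without Scap_control replicate 2 they were 1060 and 651. No other p53 target was called under any alternative. Other p53 targets with a higher mean, 13 of 25, became 21 of 34 with no filter and 8 of 16 above the 75th percentile. The stress list had 8 of 9 higher without both arrays numbered 3. The block changed no other call named. Dim probe sets have noisy log2 values, and 3 arrays per group limit all differences.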
